A study of Homo sapiens with 12 samples.

Results

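The genes described here encode the proteins that license replication origins, fire them and copy DNA at the fork. They were chosen by name, as the rows of the count data whose symbol is on a list of 50 genes. All 50 were among the 25369 genes listed, and all 50 passed the filter on low counts that left 16625 genes for testing. They were divided by role into 9 loading factors, 7 MCM genes, 8 origin firing genes, 9 polymerase genes, 6 clamp and clamp loader genes, 3 single-strand binding genes, 2 flap and nick genes, 4 fork protection genes and 2 chromatin assembly genes. RNA-seq was performed on U2OS Tet-On cells, a human osteosarcoma line in which doxycycline switches on an inserted construct. The construct was an empty vector (pTRE), HA-tagged wild-type E2F1 (WT), or E2F1 in which arginines were replaced with lysine at the position named by R109K or at the 2 positions of R111/113K (KK). All 4 lines were stable lines kept in G418 and hygromycin B, and all, pTRE included, received doxycycline at 1 µg/ml for 24 hours, with 3 biological replicates each. The sources do not say how many clones a line comes from, so differences between clones and effects of the construct cannot be told apart, and the cells keep their own E2F1 gene.

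Replication starts in G1, when the origin recognition complex, CDC6 and CDT1 load the MCM helicase onto DNA in an inactive form, a step called licensing. In S phase, the kinase of CDC7 and DBF4 and the cyclin-dependent kinases activate the helicase together with CDC45 and the GINS complex, and polymerases, a sliding clamp and their partners then copy both strands. Many of these genes are textbook E2F targets, transcribed at the transition from G1 to S through E2F sites close to their start sites. The comparisons ask how transcript levels of this machinery differ when WT E2F1 or an arginine mutant is induced.

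The samples held 11500537 to 31040903 reads on genes, and between 0.630% and 0.662% of them fell on the 50 genes. The lowest total was that of WT replicate 2, in which 58.7% of reads were counted to no annotated feature, against 23.6% to 29.6% in the other samples. Where in the genome those reads lay was not tested. E2F1 transcripts, which take in the cells' own gene and the construct, stood between 82.9 and 101 CPM, counts scaled to library size, in pTRE and between 932 and 2315 CPM in the E2F1 samples. This separates the E2F1 samples from pTRE as labelled, but the ranges of the 3 E2F1 lines meet, and total E2F1 counts do not show which construct a sample carries. Of the mesenchymal and bone markers, COL1A1, SPARC and VIM were abundant, RUNX2 stood at 17.0 CPM and ALPL at 1.18 CPM in pTRE, and COL1A2 and BGLAP were at or near 0. The labels call the line both an osteosarcoma and epithelial, and of the epithelial markers KRT8 and KRT18 were abundant, EPCAM stood at 12.3 CPM in pTRE, CDH1 was near 1 CPM and KRT19 was at or near 0, while the haematopoietic and endothelial markers stayed below 1 CPM in sum. The 7 mesenchymal and bone markers summed to between 6128 and 7391 CPM in pTRE and to between 2171 and 3383 CPM in the E2F1 samples. COL1A1 fell by 2.65 and SPARC by 1.37 on the log2 scale in WT and carried most of this, and the 5 epithelial markers summed to between 744 and 919 CPM in pTRE and to between 365 and 659 CPM in the E2F1 samples. Of the 5 mesenchymal and 4 epithelial markers tested, COL1A1, SPARC and KRT8 fell in all 3 E2F1 lines, RUNX2 also fell in KK and R109K, and the others did not pass, and their part in the results was not tested.

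The reference promoters of POLE, MCM6, MCM8 and TIMELESS are given first, since E2F sites would be looked for there. With DBF4, these had the largest changes past the test in WT among the genes with a promoter in the table, and GENCODE exons cover the DBF4 promoter before its start site. RefSeq promoters, 250 bases before to 50 after a start site, were found for 44 of the 50 genes, and all 44 matched GRCh37 (hg19), the build of the reads, at a single place. The E2F motif was searched on both strands as TTT, then 2 bases that are each C or G, then CGC, and its 7-base core as the same letters without the first T. It was present in 19 of the 44 promoters (43.2%), in 4.95% of the 11640 tested genes with a promoter, and in 3.32% of all 35116 promoters of that length. The core, which every full motif contains, was present in 31 of 44 (70.5%), against 19.5% of the tested genes. CCAAT, the site of NF-Y, was present in 25 of 44 (56.8%), against 35.8%. The lines that follow print, 5′ to 3′ on the gene's strand, the longest part of each promoter before the start site that no GENCODE exon covers, with E2F motifs and cores in capitals. POLE is at chr12:133263963-133264172 (minus strand), MCM6 at chr2:136634014-136634263 (minus), MCM8 at chr20:5931205-5931297 (plus) and TIMELESS at chr12:56843211-56843285 (minus), all in GRCh37.
POLE: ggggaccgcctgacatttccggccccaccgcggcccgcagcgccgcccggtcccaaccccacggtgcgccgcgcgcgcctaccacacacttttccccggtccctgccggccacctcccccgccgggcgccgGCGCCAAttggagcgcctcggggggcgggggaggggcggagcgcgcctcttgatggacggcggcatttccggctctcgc
MCM6: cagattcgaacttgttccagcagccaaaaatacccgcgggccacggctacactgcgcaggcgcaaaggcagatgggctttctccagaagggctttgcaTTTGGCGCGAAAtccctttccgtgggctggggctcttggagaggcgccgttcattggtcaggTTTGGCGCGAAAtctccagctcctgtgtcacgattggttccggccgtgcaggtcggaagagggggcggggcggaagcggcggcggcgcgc
MCM8: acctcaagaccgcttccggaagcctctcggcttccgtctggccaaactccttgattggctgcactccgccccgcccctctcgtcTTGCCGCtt
TIMELESS: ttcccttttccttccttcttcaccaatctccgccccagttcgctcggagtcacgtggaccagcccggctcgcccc

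MCM6, whose transcripts fell, holds 2 copies of a sequence that reads as the full motif on both strands, starting 152 and 90 bases before the start site. POLE, whose transcripts rose, holds the core shown at -113 and a full motif at -18, outside the part printed. MCM8 holds a core at -9 and a full motif at +27, and TIMELESS holds a core at +10. The DBF4 promoter searched, chr7:87505558-87505857, holds neither. It lies wholly after the start of the gene in GENCODE (87505531), and bases before that start were not searched. Among genes with a promoter, the full motif was present in 3 of the 5 that rose in any E2F1 line, in 3 of the 6 that fell and in 13 of the 33 that passed the test in no line. All 5 MCM genes with a promoter in the table held it, and their transcripts went in both directions. A match describes the letters only.

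Levels are compared between genes as CPM per kb of the canonical transcript. In pTRE the highest were POLD2, a subunit of polymerase delta, at 194 ± 16.3, the helicase subunit MCM7 at 177 ± 15.99, the clamp PCNA at 136 ± 15.1, MCM3 at 122 ± 2.83 and the flap endonuclease FEN1 at 117 ± 9.72 (SD, n = 3). The spreads of POLD2 and MCM7 overlapped, as did those of PCNA, MCM3 and FEN1. The lowest were ORC4 at 6.23 ± 0.362, the chromatin assembly subunit CHAF1B at 8.01 ± 0.212, and POLA1, the catalytic subunit of polymerase alpha, at 12.6 ± 0.662. Subunits of a single complex could lie far apart on this scale, since ORC6 stood at 38.4 ± 3.16 and ORC4 at 6.23. Before division by length they lay closer, at 62.0 and 40.8 CPM in pTRE, and their canonical transcripts are 1615 and 6547 bases long. Which transcript forms the cells use was not tested, and the order of the levels depends on the length used. Summed over the 50 genes, the level was 6480 ± 121 CPM in pTRE, 6648 ± 14.7 in R109K, 6365 ± 180 in KK and 6213 ± 289 in WT (SD, n = 3).

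**Figure D1:**
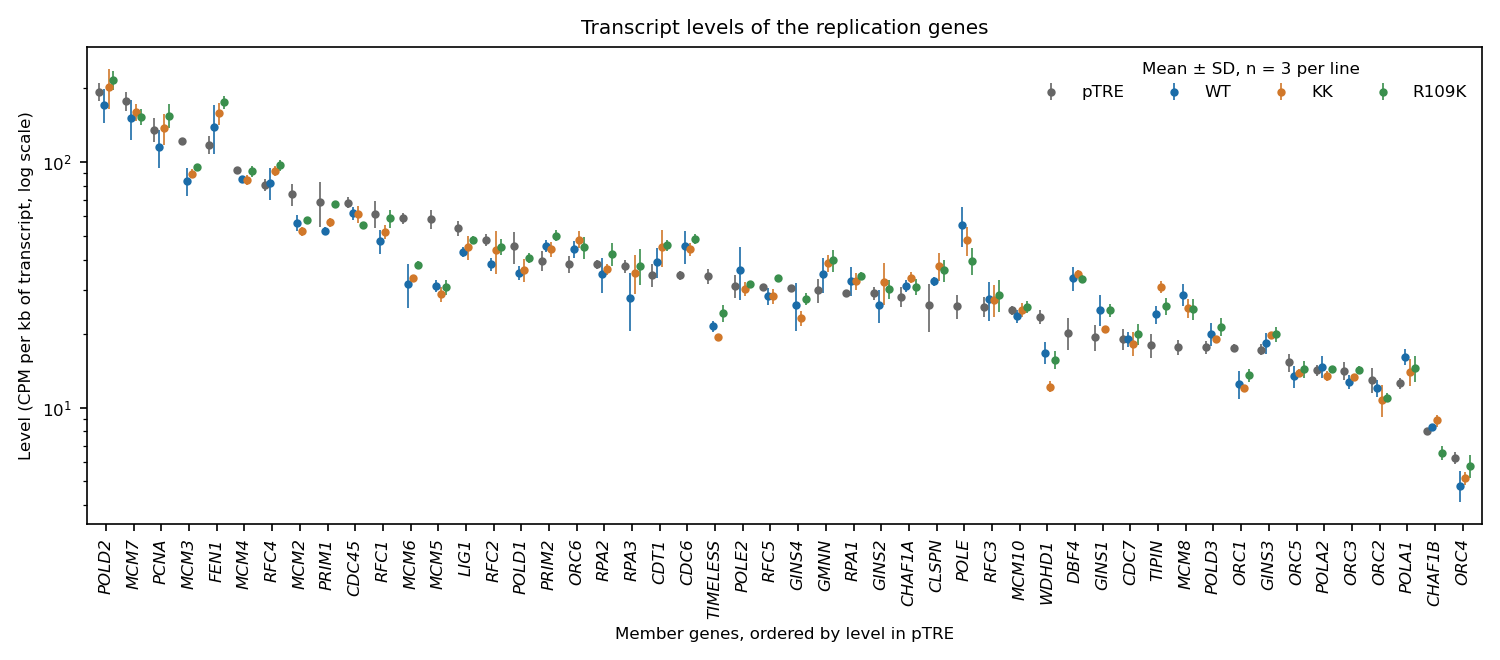
Transcript level of each of the 50 genes in CPM per kb of transcript (log axis), ordered by the level in pTRE, with points for the mean and bars for the SD of 3 replicates in each of the 4 lines. Levels run from 194 for POLD2 to 6.23 for ORC4 in pTRE, and 38 of the 50 lie within 5 ranks of their pTRE place in the WT line, as do 39 in R109K and 33 in KK, with POLE moving from rank 32 to rank 10 in WT.

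Induction of E2F1 was followed by few and mostly small changes in these genes, in both directions. A transcript is said to have risen or fallen when edgeR's adjusted p-value over all 16625 genes was below 0.01, and to be regulated when the change was also greater than 2-fold. In WT against pTRE, 9 of the 50 passed the test, and 26.2% of all genes tested did. Of these, 3 rose (6% of the 50, against 14.8% of all genes) and 6 fell (12%, against 11.4%). In KK, 4 rose and 7 fell, where 13.8% of all genes rose and 10.7% fell, and 24.4% passed in all. In R109K, 5 rose and 4 fell, where 10% of all genes rose and 7.23% fell, and 17.3% passed in all. The replication genes thus passed the test no more often than genes in general in WT and in KK, and about as often in R109K. In bulk RNA, a change in the share of cells in S phase and a change in RNA per cell cannot be told apart.

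POLE was the only regulated gene of the 50 in WT, where 7.89% of all genes were regulated upwards and 3.93% downwards. MCM5 was the only regulated gene in KK, downwards, where 7.01% and 3.9% of all genes were regulated. None was regulated in R109K, where 4.64% and 2.56% of all genes were (edgeR, with 0 of the 50 regulated by DESeq2). In each line, 22 of the 50 had an unadjusted p under 0.05 (edgeR). Of all 16625 genes, 8153 did in WT, 7585 in KK and 6422 in R109K. The median log2 fold change over the 50 was -0.12 in WT, -0.05 in KK and 0.05 in R109K, beside medians over all genes of 0.0022, -0.0091 and -0.0007. The median of the samples, each set against the pTRE mean, was -0.07 ± 0.07 in WT, -0.04 ± 0.01 in KK and 0.04 ± 0.02 in R109K, against 0.01 ± 0.05 in pTRE (SD, n = 3), so every R109K sample lay above every WT and KK sample, while R109K and pTRE overlapped. Without pTRE replicate 1 the median in KK was 0.00037, and without WT replicate 2 that in WT was -0.04. Every E2F1 sample lay above every pTRE sample for 8 genes in WT, 14 in KK and 16 in R109K, where 25.2%, 24.9% and 24.3% of all genes did. Every E2F1 sample lay below for 16, 11 and 11, where 26.3%, 24.5% and 22.9% of all genes did.

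These 3 comparisons share the pTRE samples, so their values are set side by side and are not independent. MCM5, MCM6, MCM8, DBF4, POLE, TIMELESS and WDHD1 passed the test in all 3, ORC1, MCM3 and TIPIN in 2, MCM2 and CDC6 in 1, and the other 38 in none. The same count was not made over all genes, so it is not known whether genes in general passed in all 3 as often. The number that passed in R109K was the least stable. It fell from 9 to 6 without pTRE replicate 1, to 4 without pTRE replicate 2, to 5 without pTRE replicate 3, to 3 without R109K replicate 1, and to 5 without R109K replicate 2 or 3, and DESeq2 counted 15. Numbers of all genes under these settings are not given here, so whether genes in general shifted alike cannot be read from these counts. MCM5, DBF4 and WDHD1 were the 3 genes that passed in R109K whichever sample was left out.

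**Figure D2:**
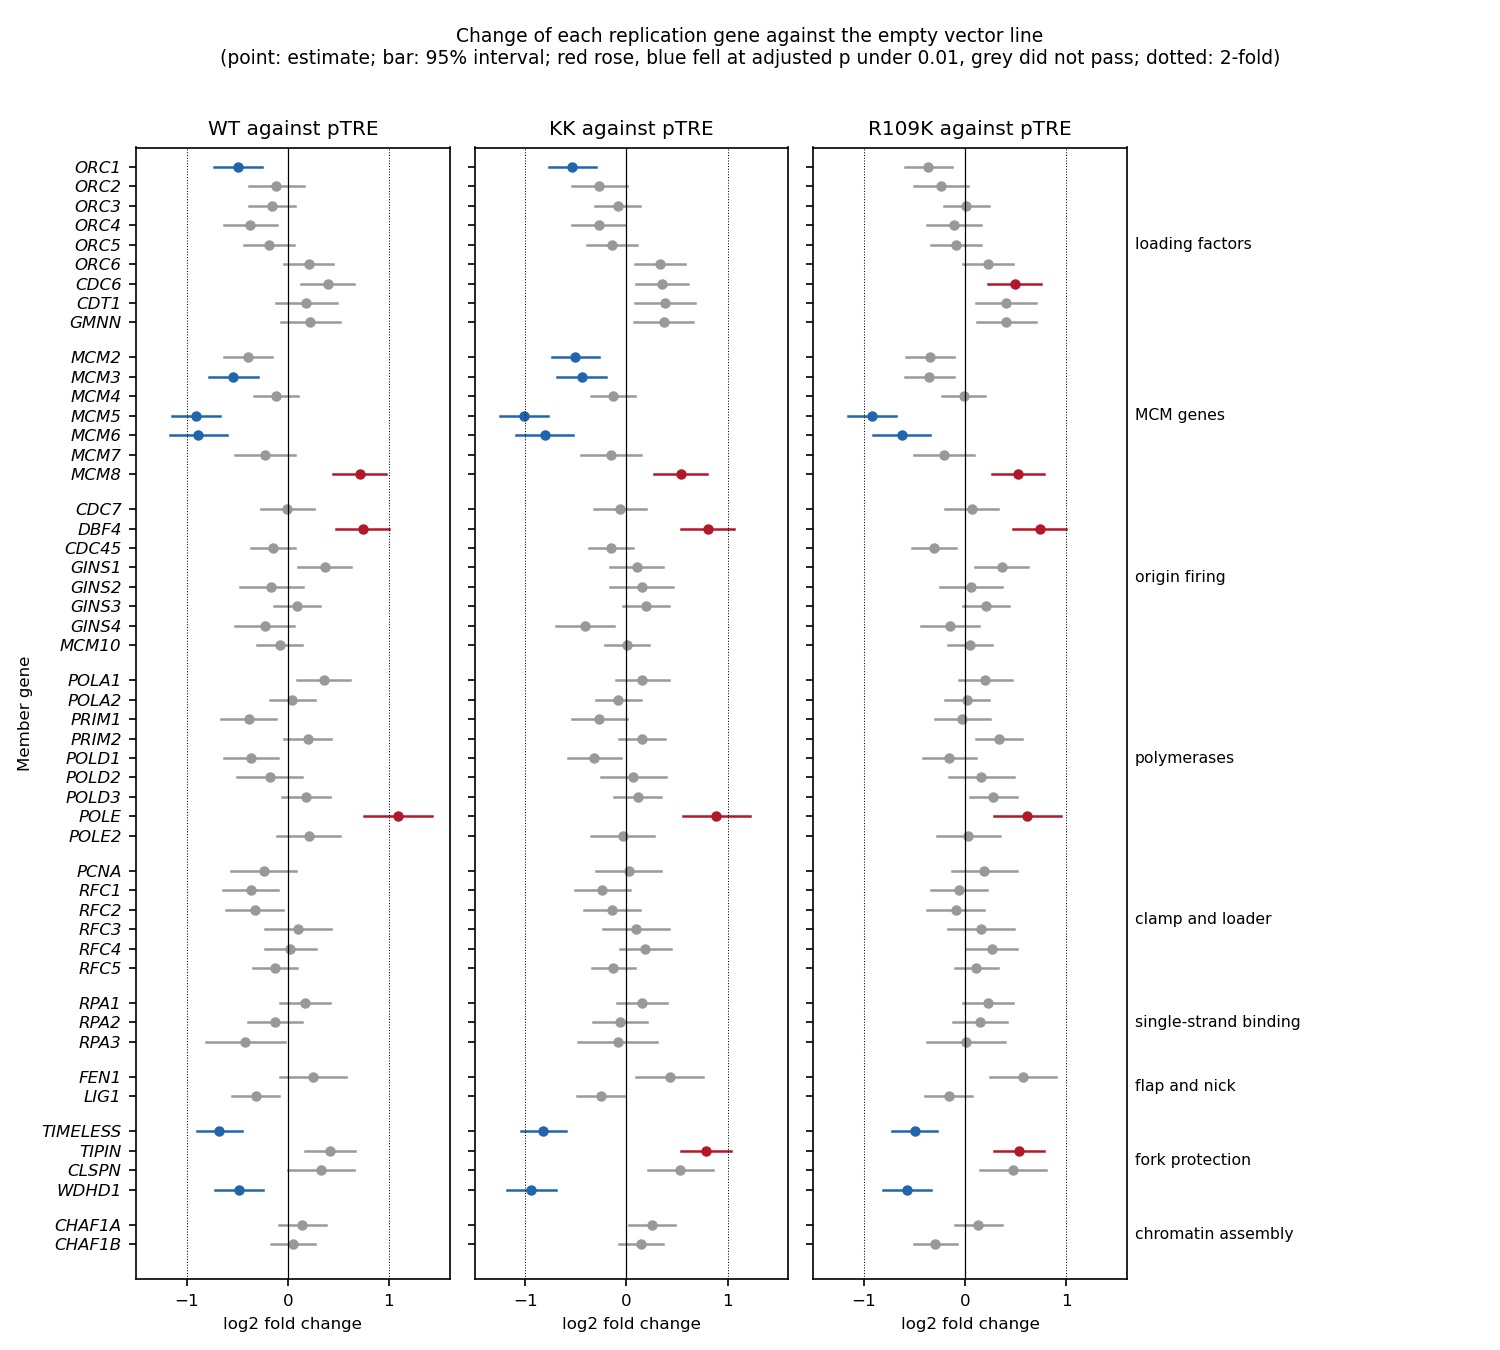
Log2 fold change of each of the 50 genes against pTRE in WT, KK and R109K, grouped by role, with points for edgeR's estimate and bars for its 95% interval. Red points rose and blue points fell at an adjusted p below 0.01, grey points did not pass, and dotted lines mark a 2-fold change, which POLE passes in WT (1.09) and MCM5 in KK (-1.02).

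Loading factors bring the helicase to the origin. ORC1, the ATPase subunit of the origin recognition complex whose level varies through the cell cycle, stood at 55.4, 55.8 and 52.2 CPM in the pTRE samples, at 35.7, 44.6 and 35.9 in WT, at 38.4, 37.4 and 36.9 in KK and at 45.0, 39.8 and 42.2 in R109K. All 9 E2F1 samples lay below all 3 pTRE samples. ORC1 fell by 0.49 in WT (SE 0.11, adjusted p = 0.00242, edgeR) and by 0.54 in KK (SE 0.11, adjusted p = 0.00133), and its difference in R109K was -0.36 (adjusted p = 0.0217). In WT the call was lost without pTRE replicate 2 (-0.48), WT replicate 1 (-0.45) or WT replicate 3 (-0.46). CDC6, the ATPase that joins ORC to load MCM, went the other way, with 165, 151 and 157 CPM in pTRE, 236, 172 and 214 in WT, 210.2, 187 and 205 in KK and 233, 217 and 214 in R109K. Here every E2F1 sample was higher than every pTRE sample. Its log2 fold change passed the test in R109K (0.49, SE 0.12, adjusted p = 0.0073, edgeR) but not in WT (0.40, adjusted p = 0.0179) or KK (0.35, adjusted p = 0.0349). It passed in WT without WT replicate 2 (0.51). The call in R109K was lost when any of the 6 samples was left out, with values of 0.44 to 0.52. CDT1, which carries MCM to the origin, and GMNN, which encodes geminin, its inhibitor, had values of 0.38 and 0.37 in KK (adjusted p = 0.045 and 0.0477) and of 0.40 and 0.41 in R109K (0.0424 and 0.0368). Of the other ORC genes, ORC4 had -0.37 in WT (adjusted p = 0.0285) and ORC6 had 0.33 in KK (0.0345), and ORC2, ORC3 and ORC5 lay between -0.27 and 0.01 in the 3 lines.

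Changes among the MCM genes were mostly decreases. MCM2 to MCM7 encode the ring of the replicative helicase, whose subunits work in equal number, and MCM8 encodes a related helicase subunit known from homologous recombination. In WT 3 of the 7 fell and 1 rose, in KK 4 fell and 1 rose, and in R109K 2 fell and 1 rose. Of all genes tested, 11.4%, 10.7% and 7.23% fell and 14.8%, 13.8% and 10% rose in these comparisons. MCM5 (17 exons at chr22:35796127-35821424, plus strand, GRCh37) had 184, 203 and 221 CPM in pTRE, against 101, 109.8 and 113 in WT, 95.9, 108 and 96.4 in KK and 108, 98.8 and 114 in R109K. The lowest pTRE sample was well above the highest E2F1 sample. MCM5 fell by 0.91 in WT (adjusted p = 1.45e-05), by 1.02 in KK (5.13e-06) and by 0.92 in R109K (2.30e-05), each with an SE of 0.11 (edgeR). In KK it was less than 2-fold lower without pTRE replicate 3 (-0.95), KK replicate 1 (-0.99) or KK replicate 3 (-0.99). MCM6 had 234, 218 and 211 CPM in pTRE, 130.1, 92.2 and 137 in WT, 127, 124 and 128 in KK and 148, 136 and 145 in R109K. The 9 E2F1 samples were again all lower, with WT replicate 2 the lowest of all. MCM6 fell by 0.88 in WT, 0.81 in KK and 0.63 in R109K (SE 0.13 each; adjusted p = 9.38e-05, 2.06e-04 and 0.00218, edgeR). Without WT replicate 3 it was more than 2-fold lower in WT (-1.003), and in R109K its call was lost without pTRE replicate 1 (-0.59) or without R109K replicate 1 (-0.66), 2 (-0.60) or 3 (-0.64).

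The other subunits of the ring moved less. MCM3 had 364, 379 and 379 CPM in pTRE, 264, 219.9 and 287 in WT, 263, 285 and 278 in KK and 289, 293 and 296 in R109K, with all E2F1 samples below pTRE. It fell by 0.54 in WT (adjusted p = 0.00161) and by 0.44 in KK (0.00659), and its value was -0.35 in R109K (0.0301), each with an SE of 0.11 (edgeR). Its call in KK was lost without any of the 6 samples (-0.47 to -0.41). MCM2 had 225, 262 and 275 CPM in pTRE, 196, 178 and 207 in WT, 187, 180.1 and 171 in KK and 205, 196 and 198 in R109K. It fell by 0.50 in KK (SE 0.11, adjusted p = 0.00228, edgeR), a call that was lost without pTRE replicate 2 (-0.49), pTRE replicate 3 (-0.45) or KK replicate 3 (-0.47). Its values in WT and R109K were -0.39 (adjusted p = 0.0116) and -0.35 (0.0287). It passed in WT without pTRE replicate 1 (-0.48), and 23.6% of its exon bases are shared with an antisense transcript. MCM4 and MCM7 did not pass in any line, with log2 fold changes of -0.13 to -0.01 for MCM4 and of -0.23 to -0.15 for MCM7. In WT the 95% intervals of MCM4 (-0.34 to 0.10) and MCM5 (-1.15 to -0.67) did not meet. MCM8 rose, from 134, 139 and 122 CPM in pTRE to 206, 241 and 201 in WT, 205, 172 and 196 in KK and 199.7, 168 and 200.4 in R109K. Every E2F1 sample was above every pTRE sample, with log2 fold changes of 0.71 in WT, 0.54 in KK and 0.52 in R109K (SE 0.12 each; adjusted p = 3.08e-04, 0.00281 and 0.00464, edgeR). The call was lost in KK without pTRE replicate 1 (0.55) or 3 (0.48) or KK replicate 1 (0.48) or 3 (0.51), and in R109K without any sample but R109K replicate 2 (0.47 to 0.56). A neighbouring coding gene on the same strand shares 33.3% of its exon bases, so the reads of the 2 genes may not be told apart.

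Among the origin firing genes, only DBF4 passed the test. It encodes the regulatory subunit of the kinase that phosphorylates the MCM ring, from 12 exons at chr7:87505531-87538868 (plus strand, GRCh37). DBF4 had 85.3, 71.3 and 63.9 CPM in pTRE, 138, 117 and 113 in WT, 124, 133 and 128 in KK and 128, 119.6 and 120.3 in R109K. All E2F1 samples were above all pTRE samples, and pTRE replicate 1 was the highest of its line. DBF4 rose by 0.74 in WT (adjusted p = 2.28e-04), 0.80 in KK (1.14e-04) and 0.74 in R109K (3.58e-04), with an SE of 0.12 in each (edgeR), and kept its call whichever sample was left out. CDC7, the catalytic subunit of the same kinase, did not pass, with values of -0.00 in WT (95% interval -0.27 to 0.26), -0.06 in KK (-0.32 to 0.20) and 0.06 in R109K (-0.20 to 0.32). The interval of DBF4 in WT, 0.48 to 1.00, did not meet that of CDC7. CDC45 and the 4 GINS genes form the active helicase with MCM, and MCM10 helps to activate it. Their values that came nearest to the threshold were 0.37 for GINS1 in WT (adjusted p = 0.0267), -0.41 for GINS4 in KK (0.0255) and -0.31 for CDC45 in R109K (0.0345). GINS4 passed in WT only without WT replicate 2 (-0.42). GINS2, GINS3 and MCM10 lay between -0.16 and 0.21 in the 3 lines.

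POLE rose most of the 50 genes in WT. It encodes the catalytic subunit of polymerase epsilon, which is known to copy the leading strand, from 49 exons at chr12:133200339-133263962 (minus strand, GRCh37). POLE had 178, 208 and 223 CPM in pTRE, 418, 517 and 361 in WT, 429, 329.9 and 367 in KK and 345, 267 and 318 in R109K. All E2F1 samples were higher than all pTRE samples, and all R109K samples were lower than all WT samples. The log2 fold change was 1.09 in WT (SE 0.16, adjusted p = 6.51e-05), 0.89 in KK (SE 0.16, adjusted p = 3.90e-04) and 0.61 in R109K (SE 0.16, adjusted p = 0.00797), from edgeR. In WT it was below 2-fold without WT replicate 2 (0.94) or pTRE replicate 1 (0.999), and it did not pass a test against 2-fold itself. In R109K the call was lost without any sample but R109K replicate 2 (0.52 to 0.69). POLE2, the partner subunit of POLE, did not pass, with 0.21 in WT (95% interval -0.11 to 0.52), -0.04 in KK and 0.03 in R109K. Neither did any of the other 7 polymerase genes. For polymerase alpha and its primase, which make the primers, POLA1 had 0.36 in WT (adjusted p = 0.0331), PRIM1 had -0.39 in WT (0.0258) and PRIM2 had 0.34 in R109K (0.0301), and POLA2 lay between -0.08 and 0.05. PRIM1 passed in WT only without pTRE replicate 3 (-0.50), and PRIM2 reads can be split with a near-identical copy. For polymerase delta, the lagging strand polymerase, POLD1 had -0.36 in WT (0.0308), and POLD2 and POLD3 lay between -0.18 and 0.28.

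No gene of the clamp and its loader, of single-strand binding or of the flap and nick group passed the test in any line. PCNA, the sliding clamp, had 195, 162 and 162 CPM in pTRE, 168, 117 and 154 in WT, 161, 205 and 161 in KK and 181, 223 and 188 in R109K. These ranges overlapped, and the log2 fold changes were -0.24, 0.02 and 0.19 (adjusted p = 0.221, 0.93 and 0.394, edgeR). RFC1, the large subunit of the loader, differed most of the clamp and loader genes in WT, with 342, 285 and 271 CPM in pTRE, 233, 205 and 258 in WT, 241, 248 and 272 in KK and 288, 261 and 311 in R109K. Its value in WT was -0.37 (SE 0.13, adjusted p = 0.0333), with all WT samples below all pTRE samples. RFC2 had -0.33 in WT (0.0582), and RFC3, RFC4 and RFC5 lay between -0.13 and 0.26. RPA3, the small subunit of the complex that coats single strands, had 80.6, 71.1 and 76.0 CPM in pTRE, 62.9, 39.2 and 67.4 in WT, 61.8, 85.8 and 66.8 in KK and 65.5, 90.4 and 73.0 in R109K. WT replicate 2 was by far the lowest sample, and the value in WT was -0.42 (SE 0.18, adjusted p = 0.0816). RPA1 and RPA2 lay between -0.13 and 0.23. LIG1, the ligase that seals Okazaki fragments, had 159, 165 and 181 CPM in pTRE, 129, 141 and 135 in WT, 129, 159 and 135 in KK and 146, 149 and 156 in R109K. The WT samples were all lower than pTRE, with a value of -0.32 (SE 0.11, adjusted p = 0.0313), which passed in 1 of 12 alternatives. FEN1, which trims those fragments, had 0.25 in WT (0.208), 0.43 in KK (0.041) and 0.58 in R109K (0.0111). Its value in R109K passed in 3 of 12 alternatives.

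The fork protection genes held changes in opposite directions within a complex. TIMELESS and TIPIN bind each other and travel with the fork. TIMELESS had 164, 187 and 179 CPM in pTRE, 108, 107 and 117 in WT, 103, 96.99 and 99.5 in KK and 123, 116 and 136 in R109K. TIPIN had 34.9, 29.8 and 28.4 CPM in pTRE, 45.4, 38.5 and 40.2 in WT, 53.2, 56.8 and 50.6 in KK and 46.8, 47.0 and 40.5 in R109K. All E2F1 samples were below pTRE for TIMELESS and above it for TIPIN. TIMELESS fell by 0.68 in WT, 0.82 in KK and 0.50 in R109K (SE 0.10 each; adjusted p = 1.25e-04, 2.16e-05 and 0.00207, edgeR), and its call in R109K was lost without pTRE replicate 2 (-0.46) or R109K replicate 1 (-0.49) or 2 (-0.45). TIPIN rose by 0.79 in KK (adjusted p = 8.76e-05) and by 0.53 in R109K (0.00306), and its value of 0.42 in WT (0.0104) lay just outside the threshold (SE 0.12 each, edgeR). TIPIN passed in WT without pTRE replicate 1 (0.50) or WT replicate 2 (0.46), and its call in R109K was lost without pTRE replicate 2 (0.50) or 3 (0.47) or R109K replicate 1 or 2 (0.49). A processed pseudogene covers 21.1% of its exon bases.

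WDHD1, which encodes AND-1, the protein that ties polymerase alpha to the helicase, had 151, 137 and 134 CPM in pTRE, 91.2, 111 and 100.0 in WT, 74.0, 69.0 and 76.9 in KK and 95.6, 86.1 and 101 in R109K. The 3 KK samples were the lowest of all 12, and no E2F1 sample reached pTRE. WDHD1 fell by 0.48 in WT (adjusted p = 0.00319), 0.94 in KK (1.23e-05) and 0.58 in R109K (0.00123), with an SE of 0.11 in each (edgeR). Its call in WT was lost without pTRE replicate 1 (-0.43) or WT replicate 1 (-0.42). CLSPN, which encodes the checkpoint mediator claspin, had 0.33 in WT (0.101), 0.53 in KK (0.0125) and 0.47 in R109K (0.03). It passed in KK (0.73) and in R109K (0.67) without pTRE replicate 1, whose 278 CPM was far above the 202 and 186 of the other pTRE samples. The subunits of the chromatin assembly factor that deposits histones behind the fork did not pass. CHAF1A had 89.3, 91.5 and 105 CPM in pTRE, 100.0, 105 and 112 in WT, 107, 118 and 117 in KK and 103, 97.6 and 112 in R109K, with a value of 0.15 in WT (SE 0.11, adjusted p = 0.299). CHAF1B had 0.05 in WT (0.709), 0.14 in KK (0.286) and -0.30 in R109K (0.0391).

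**Figure D3:**
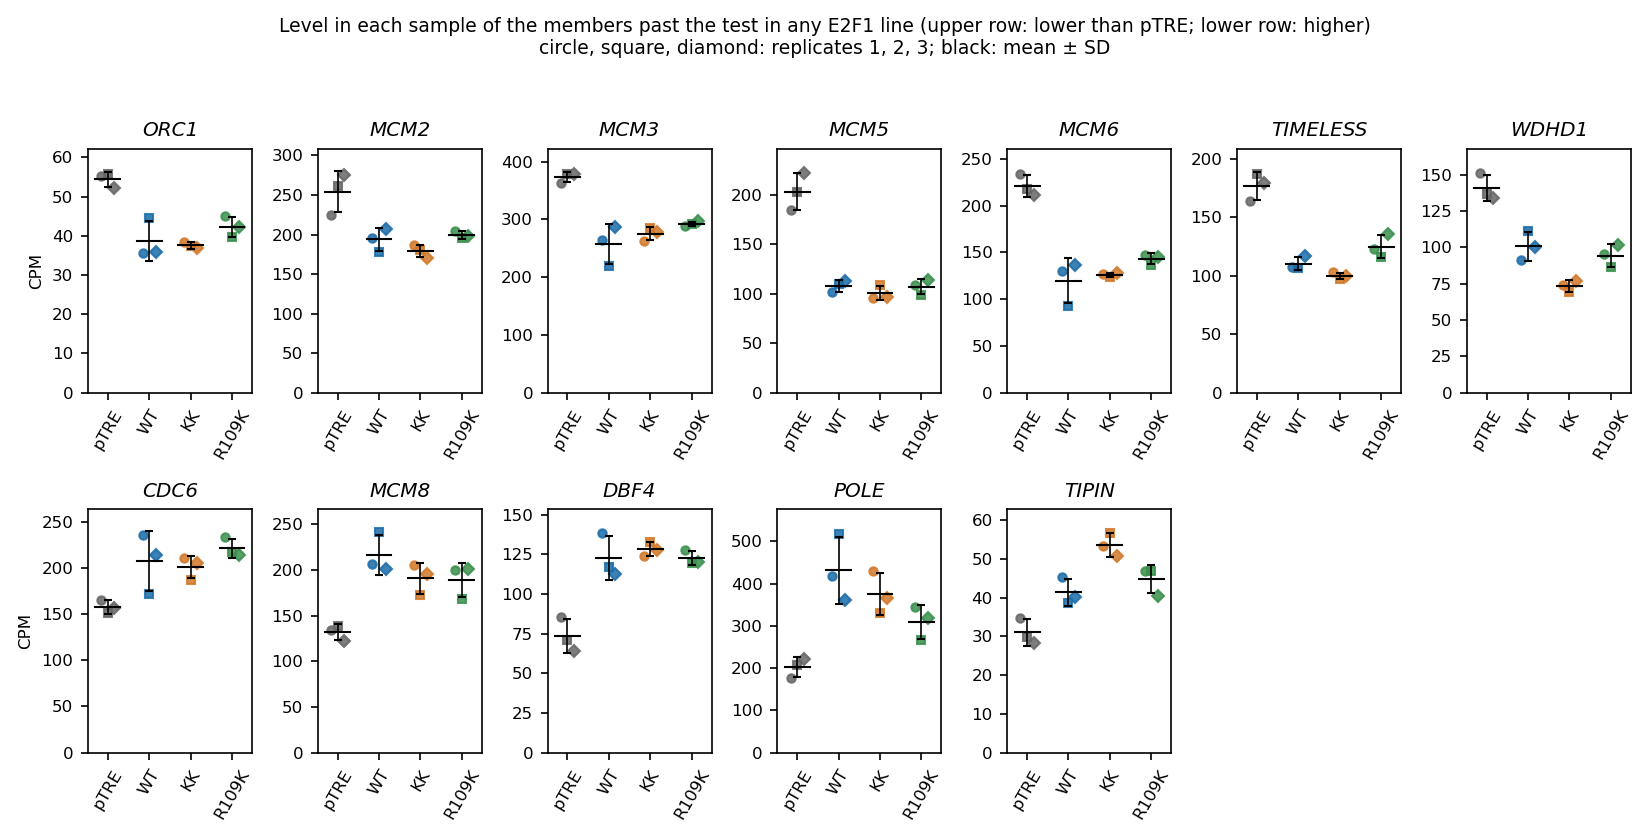
CPM in each of the 12 samples for the 12 genes that passed the test in any E2F1 line, with a linear axis from 0, circles, squares and diamonds for replicates 1, 2 and 3, and black bars for the mean and SD of a line. The upper row holds the 7 genes that were lower than in pTRE, such as MCM5, with no sample above 114 CPM in the E2F1 lines and none below 184 in pTRE, and the lower row the 5 that were higher.

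In the model without pairing, none of the 50 genes differed between E2F1 lines at an adjusted p below 0.01 (edgeR). In KK against WT, 0.012% of all genes passed that test, all of them lower (0% higher), and 0.00602% were also more than 2-fold lower. In R109K against WT, 0.71% passed (0.15% higher and 0.559% lower), and 0.0962% and 0.247% were more than 2-fold higher and lower. In R109K against KK, 0.132% passed (0.0541% higher and 0.0782% lower), and 0.0421% and 0.0481% were more than 2-fold higher and lower. At an unadjusted p under 0.05 there were 4, 9 and 6 of the 50, beside 1415, 3714 and 2062 of all 16625 genes. DESeq2 passed none in the first and second of these comparisons and 1 in the third, CHAF1B. For all 50 genes and in each of these comparisons, the 95% interval of the difference lay within 2-fold either way, and it lay within 1.5-fold for 46, 44 and 47 of them. A p that misses the threshold does not show that the lines had equal levels. Same-numbered R109K and KK samples deviated together, and a fit of these 6 samples with the replicate number as a block, chosen after seeing the data, passed 6 of the 50, with 4 higher and 2 lower in R109K than in KK. In that fit 11.5% of 16069 genes passed (4.82% higher and 6.71% lower), so the 50 passed about as often as genes in general. It leaves few degrees of freedom, and with the block in the model of all 12 samples none of the 50 passed. The 6 were CHAF1B (-0.44, adjusted p = 2.29e-04), WDHD1 (0.36, 3.83e-04), TIMELESS (0.32, 0.00129), POLE (-0.27, 0.00232), GINS4 (0.27, 0.00396) and GINS1 (0.26, 0.00823), all from edgeR. In R109K against WT, all R109K samples were above all WT samples for 13 of the 50 and below for 4, where 13.1% and 14% of all genes were. In R109K against KK these were 14 and 3, where 9.56% and 11.4% of all genes were, and in KK against WT 2 and 3, where 4.81% and 5.16% were.

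WDHD1 was lower in KK than in WT by a log2 difference of -0.46 (SE 0.11, adjusted p = 0.533), and higher in R109K than in KK by 0.36 (SE 0.11, adjusted p = 0.142), both without pairing and with no overlap of samples. TIPIN was higher in KK than in WT by 0.37 (95% interval 0.12 to 0.62, adjusted p = 0.574), and TIMELESS was higher in R109K than in KK by 0.32 (0.10 to 0.55, adjusted p = 0.165 without pairing). For POLE the difference of R109K from WT was -0.48 (-0.81 to -0.15, adjusted p = 0.0986), and for PCNA it was 0.43 (0.10 to 0.75, adjusted p = 0.126). WT replicate 2 was the highest WT sample for POLE and the lowest for PCNA, and without it these differences were -0.33 and 0.29. CHAF1B had 34.7, 36.4 and 36.2 CPM in pTRE, 38.4, 36.1 and 36.6 in WT, 40.9, 40.8 and 36.99 in KK and 30.4, 30.0 and 27.0 in R109K. The 3 R109K samples were the lowest of the 12. The difference of R109K from KK was -0.44 (SE 0.10, adjusted p = 0.0473 without pairing, edgeR) and that from WT was -0.35 (SE 0.10, adjusted p = 0.0715), and DESeq2 gave an adjusted p of 0.00144 for the first. The clamp and loader genes were all higher in R109K than in WT, with differences of 0.06 to 0.43, none of which passed. RFC3 changed sign in 2 of 12 alternatives, and the others kept theirs. The group's median against the pTRE mean was lowest in WT replicate 2, at -0.34, against -0.13 and -0.16 in WT replicates 1 and 3. Samples did not overlap in 5 of the 6, where 13.1% of all genes lay wholly above. This direction was not particular to that group. Of the 50 genes, 37 were higher in R109K and 13 lower, and the 3 single-strand binding and 2 flap and nick genes were all higher.

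**Figure D4:**
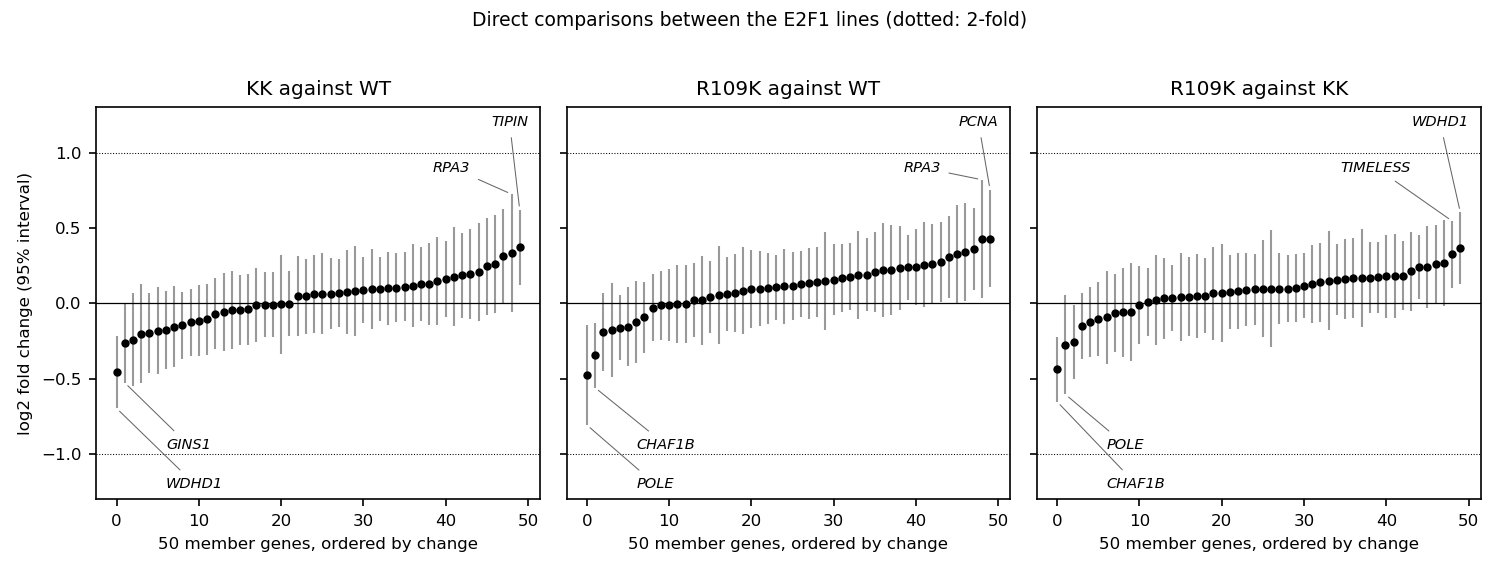
Log2 differences between E2F1 lines for the 50 genes, ordered within each panel, with points for edgeR's estimate without pairing and bars for its 95% interval. No interval reaches the dotted 2-fold lines, and differences run from -0.46 to 0.37 in KK against WT, -0.48 to 0.43 in R109K against WT and -0.44 to 0.36 in R109K against KK.

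Further genes of replication, from a list of 26 that are not among the 50, moved in both directions too. In WT 5 rose and 1 fell, and in KK and R109K 6 rose and 1 fell, with medians of 0.22, 0.13 and 0.20. The shares that rose were 19.2%, 23.1% and 23.1%, against 14.8%, 13.8% and 10% of all genes, and 3.85% fell in each, against 11.4%, 10.7% and 7.23%. Their summed level was between 3502 and 3822 CPM in pTRE and between 3893 and 4698 CPM in the E2F1 samples. DONSON, which encodes a fork component that helps to build the helicase, had 52.0, 46.9 and 44.9 CPM in pTRE, 143, 117 and 99.9 in WT, 139, 108 and 120.2 in KK and 102, 91.5 and 82.3 in R109K. All E2F1 samples were higher, and DONSON rose by 1.32 in WT, 1.35 in KK and 0.94 in R109K (SE 0.14 to 0.15, edgeR), which made it regulated in WT and KK. POLD4, the small subunit of polymerase delta, had 21.6, 17.2 and 23.0 CPM in pTRE, 9.58, 8.59 and 12.9 in WT, 8.44, 11.3 and 9.16 in KK and 10.3, 12.9 and 12.6 in R109K. It fell by 0.98 in WT, 1.10 in KK and 0.79 in R109K (SE 0.17 to 0.18, edgeR), which made it regulated in KK, and the catalytic subunit POLD1 passed in no line. The G2 and M phase genes, a list of 16 read beside the replication genes, held 4 that rose in WT, 5 in KK and 9 in R109K, and none that fell. These were 25%, 31.2% and 56.2% of the list, where 14.8%, 13.8% and 10% of all genes rose. Their summed level was between 3333 and 3690.1 CPM in pTRE, 3779 and 4417 in WT, 4291 and 4579 in KK and 4677 and 4995 in R109K. Its part in the values of the replication genes was not tested.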

How the data were processed

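RNA-seq was performed on poly(A) RNA of 12 samples, 3 biological replicates of each of 4 U2OS Tet-On lines. The authors deposited 1 count file per sample, whole-number counts of reads per gene symbol for 25369 genes without normalization, followed by 5 summary lines that were left out of library sizes. Per the submitters' processing notes and the paper's methods, reads were trimmed with Trim Galore 0.4.3 and aligned to hg19 with STAR 2.5.1. The library kit keeps strand, and the strand setting of the counting is not given in the sources used here. Overlaps with other genes are stated beside MCM2, MCM8, PRIM2 and TIPIN only, and other genes overlap as well. Antisense transcripts share 21% of the exon bases of GINS4 and 10.9% of those of GINS3. Same-strand genes share 16.8% for POLA2, 10.9% for PRIM1 and 8.63% for POLD1. Smaller overlaps of further genes are not listed, and the effect of overlaps on the counts was not tested.

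Testing used edgeR 4.0.16 under R 4.3.3 (filterByExpr with the 4 lines as groups, TMM, and 1 quasi-likelihood model of all 12 samples with a mean per line). P-values were adjusted over the 16625 genes by the Benjamini-Hochberg method. The study's own analysis used DESeq2, which was an alternative here (1.42.0). SE and 95% intervals come from the model. CPM use TMM library sizes. The steps were tested on simulated data. P-values measure the spread between the replicates of single lines.

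The 50 genes, their groups and the other lists were chosen with earlier results of these data known. Values in every sample are given for genes regulated in any comparison and for the gene of each group with the largest change in WT; those of PCNA, CHAF1B and the other genes past the test in any line were added after their values were seen. Positions and lengths come from GENCODE 44 lifted to GRCh37, and promoters from RefSeq (GRCh38.p14), matched to GRCh37 by their letters. Replicate numbers were taken to pair R109K with KK, since after removal of line means all 3 same-numbered pairs correlated (0.29 to 0.47, against -0.34 to 0.04 for the 6 other pairs), although the labels name no shared batch or day. The other pairs of lines did not meet that rule (every pair over 0.1). Other alternatives were RLE normalization, no filter, a minimum of 10 counts in every sample, only the 6 samples compared, the replicate number as a block, each sample left out in turn, an adjusted p under 0.05, a test against 2-fold, and the 7-base core. Splicing was not analysed here.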

Additional observations from a re-analysis of the deposited data

Results flagged for a closer look

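For RFC5, a subunit of the clamp loader, all 3 KK samples lay below pTRE, with a log2 fold change of -0.13, and all 3 R109K samples lay above it, with 0.11. Levels were 66.8, 64.7 and 64.8 CPM in pTRE, 63.9, 55.8 and 59.5 in KK and 72.1, 67.7 and 72.0 in R109K. Neither change passed edgeR's test against pTRE (adjusted p = 0.34 and 0.462), and the direct difference of R109K from KK was 0.24 (SE 0.10, adjusted p = 0.327, and 0.0118 with the replicate block in the 6 samples). For CHAF1B, all KK samples lay above pTRE, with 0.14, and all R109K samples below it, with -0.30, and the direct difference was -0.44 (adjusted p = 0.0473, and 2.29e-04 with that block, edgeR). These 2 genes were the only ones of the 50 whose samples lay wholly on opposite sides of pTRE in 2 E2F1 lines. Of all genes, 24.9% lay wholly above pTRE in KK and 24.5% wholly below. In R109K these shares were 24.3% and 22.9%. The share of all genes on opposite sides was not counted, so 2 of the 50 cannot be called unusual.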

How the results depend on the processing

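Of 1800 values of the 50 genes against pTRE under the alternatives, 1724 kept their side of the threshold, 25 passed only under the alternative and 51 lost their call, and no called value changed sign. Between E2F1 lines 1843 of 1850 kept their side, and the 7 that passed only under an alternative were CHAF1B in R109K against KK with DESeq2 and the 6 genes of the paired fit of R109K and KK. At an adjusted p under 0.05, the genes past the test were 19 in WT, 18 in KK, 20 in R109K and 1 in R109K against KK. DESeq2 counted 15 in R109K and 1 in R109K against KK. For these counts and those with samples left out, the numbers of all genes that passed are not given here. Tested against 2-fold itself, 0 genes were regulated in WT and in KK. With 1 sample left out, genes past the test numbered 7 to 12 in WT, 8 to 10 in KK and 3 to 6 in R109K. Regulated genes then numbered 0 to 2 in WT and 0 to 1 in KK. The median of the 50 then ran from -0.11 to -0.0421 in WT, from -0.0749 to 0.00037 in KK, where the sign turned without pTRE replicate 1, and from 0.0278 to 0.103 in R109K. With only the 6 samples compared, the median in KK was -0.0336. The 7-base core was held by 70.5% of promoters in place of 43.2%. Apart from the alternatives built with fewer samples or another threshold, the cause was not tested.

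With the replicate number as a block in the 6 samples of R109K and KK, 6 genes passed the test, against 0 without it. Elsewhere the samples shared only a number, with correlations of -0.29 to 0.24 between same-numbered samples. With that block in the model of all 12 samples, 10 genes passed the test in WT, 11 in KK and 8 in R109K. The block ended the call of POLE in R109K (adjusted p = 0.0175) and added TIPIN in WT (adjusted p = 0.00649, edgeR). Depth was lowest in WT replicate 2, at 11500537 reads on genes.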
